A study of Bos taurus with 13 samples.

Results

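The miRNAs described here are those of 1 genomic cluster of the bovine X chromosome: bta-miR-424-5p, bta-miR-424-3p, bta-miR-503-5p, bta-miR-542-5p, bta-miR-450a and bta-miR-450b. These 6 members were chosen by name, and bta-miR-424-5p and bta-miR-542-5p lead the choice because of their values in always negative cows and heifers. All 6 were listed in each of the 13 libraries, among 262 miRNAs listed in every library and 311 listed in any. Extracellular vesicles (EVs) are small particles with a membrane that cells shed into body fluids, and their small RNA was sequenced here from pooled follicular fluid of Holstein-Friesian cattle, aspirated from large follicles by ovum pick-up. Transition cows (TCs) were in negative energy balance early after calving and positive later, and were sampled as 3 pools at weeks 5 and 6 (11 cows) and as 3 pools at weeks 9 and 10 (7 cows). Always negative cows (ANCs) and always positive cows (APCs) kept 1 energy status, and each group gave 2 pools at weeks 5 and 6 from 2 cows. The heifers, which had not calved and were in positive energy status, gave 3 pools from 8 animals.

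MicroRNAs are cut from hairpin precursors, and either arm of a hairpin (5p or 3p) can be loaded into the silencing complex, where bases near its 5′ end, the seed, select the target mRNAs. The hairpins of this cluster lie close together and are thought to be processed from shared primary transcripts. The 5p arm of miR-424 has the seed of the miR-15 and miR-16 family, whose known targets include cyclins and other cell cycle genes, and miR-503 has a closely related seed. In bovine follicles the miR-424 and miR-503 cluster has been studied in granulosa cells, the somatic cells around the oocyte, in connection with proliferation and activin signalling. In the RefSeq annotation of another bovine assembly (ARS-UCD2.0), which was used for names and order alone, MIR450B, MIR450A-1, MIR450A-2, MIR542, MIR503 and MIR424 follow each other in this order on chromosome X. 1 further annotated gene, MIR3601, lies among them, between MIR542 and MIR503. Because miR-450a has 2 hairpins, its reads cannot be assigned to one of them.

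Levels are given in CPM (reads of a miRNA scaled to a fixed library size), from whole reads recovered out of the deposited values and scaled by TMM over all 13 libraries, so that they can be set side by side across the 5 groups. The reads recovered for the listed miRNAs summed to 145030 to 421435 per library, which is not the number of all reads sequenced. A level of 7.30 to 20.1 CPM corresponded to 3 reads, taken as the limit of detection. The 6 members together took 0.158% to 0.500% of the listed miRNA reads of a library. Values are the mean ± SD over pools, and the pools are the replicates. The study calls them biological replicates, but how the animals were divided among them is not stated, so the spread may be partly technical. With bulk vesicle RNA, fewer vesicles of a cell type and less of a miRNA per vesicle cannot be told apart. No library stood apart from the others in its correlation over miRNAs (mean r with the other libraries 0.927 to 0.957).

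bta-miR-424-5p was the most abundant member in 9 of 13 libraries, and its level was spread over a wide range among the pools. The ANC pools held 2040 and 1587 CPM. The TCs at weeks 5 and 6 held 1134, 688 and 2898 CPM, so that replicate 3 of this group was the highest of all pools. The levels were 913 and 949 CPM in APCs, 815, 649 and 685 CPM in TCs at weeks 9 and 10 and 484, 544 and 827 CPM in heifers. In order of the group means, ANCs (1814 ± 321 CPM, n = 2) came before TCs at weeks 5 and 6 (1574 ± 1168 CPM, n = 3), APCs (931 ± 25.4 CPM, n = 2), TCs at weeks 9 and 10 (716 ± 87.1 CPM, n = 3) and heifers (619 ± 183 CPM, n = 3). Of the neighbours in this order, only APCs and TCs at weeks 9 and 10 had ranges that did not overlap. In the deposited values these ranges overlapped as well. Its rank among the miRNAs of a library lay between 57 (replicate 3 of TCs at weeks 5 and 6) and 115 (replicate 1 of heifers).

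The other arm of this hairpin, bta-miR-424-3p, was much less abundant, with 6 to 42 reads per library. It stood at 87.2 and 80.3 CPM in ANCs, at 48.0, 62.6 and 37.8 CPM in TCs at weeks 5 and 6 and at 68.6 and 43.4 CPM in APCs. The TCs at weeks 9 and 10 held 102, 46.6 and 15.8 CPM, and the heifers 34.6, 52.4 and 45.8 CPM. The lowest and the highest pool for this arm were thus of the same group, TCs at weeks 9 and 10. bta-miR-424-5p outnumbered it by 7.98 reads to 1 (replicate 1 of TCs at weeks 9 and 10) up to 76.7 to 1 (replicate 3 of TCs at weeks 5 and 6).

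bta-miR-542-5p, from a hairpin between those of miR-450a and miR-503, followed a pattern close to that of bta-miR-424-5p at a lower level. It was at 361 and 335 CPM in ANCs and at 192, 111 and 635 CPM in TCs at weeks 5 and 6, where replicate 3 was again the highest of all pools. It stood at 216, 133 and 139 CPM in TCs at weeks 9 and 10, at 124, 117 and 189 CPM in heifers and at 175 and 80.2 CPM in APCs. The group means were 348 ± 18.2 CPM in ANCs (n = 2), 313 ± 282 CPM in TCs at weeks 5 and 6 (n = 3), 163 ± 46.6 CPM in TCs at weeks 9 and 10 (n = 3), 143 ± 39.5 CPM in heifers (n = 3) and 128 ± 67.0 CPM in APCs (n = 2), and the ranges of all neighbours in this order overlapped. The reads of bta-miR-542-5p were 0.0845 to 0.266 of those of bta-miR-424-5p, and 0.161 or more in every pool other than replicate 2 of APCs.

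bta-miR-450b, at the far end of the cluster, was of the same order of abundance as bta-miR-424-5p. The ANC pools, at 1684 and 1245 CPM, were above each of the other 11 pools. Next came replicate 3 of TCs at weeks 5 and 6 at 1215 CPM, with 788 and 640 CPM in the other pools of that group. The remaining pools were close together, at 871, 620 and 916 CPM in TCs at weeks 9 and 10, 782 and 631 CPM in APCs and 702, 739 and 771 CPM in heifers.

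bta-miR-450a was far less abundant than bta-miR-450b and varied widely within every group. It was at 71.3 and 321 CPM in ANCs, 92.6 and 367 CPM in APCs, 96.0, 14.2 and 556 CPM in TCs at weeks 5 and 6, 12.2, 126 and 70.9 CPM in TCs at weeks 9 and 10 and 34.6, 30.0 and 229 CPM in heifers. These values rest on 5 to 162 reads, and the 5 groups overlapped. bta-miR-450b exceeded it by 1.72 reads to 1 up to 71.6 to 1.

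bta-miR-503-5p did not share the pattern of bta-miR-424-5p, although their hairpins are neighbours. The heifers held 143, 325 and 396 CPM, and the ANCs 155 and 87.0 CPM. The other groups lay across this range, at 226 and 157 CPM in APCs, 117, 242 and 134 CPM in TCs at weeks 5 and 6 and 331, 86.1 and 94.5 CPM in TCs at weeks 9 and 10. The opposite arm, bta-miR-503-3p, which was not among the 6 members, was the more abundant arm in 12 of 13 libraries. It stood at 721 and 315 CPM in ANCs, 539 and 331 CPM in APCs, 466, 600 and 687 CPM in TCs at weeks 5 and 6, 610, 265 and 286 CPM in TCs at weeks 9 and 10 and 272, 474 and 191 CPM in heifers.

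**Figure D1:**
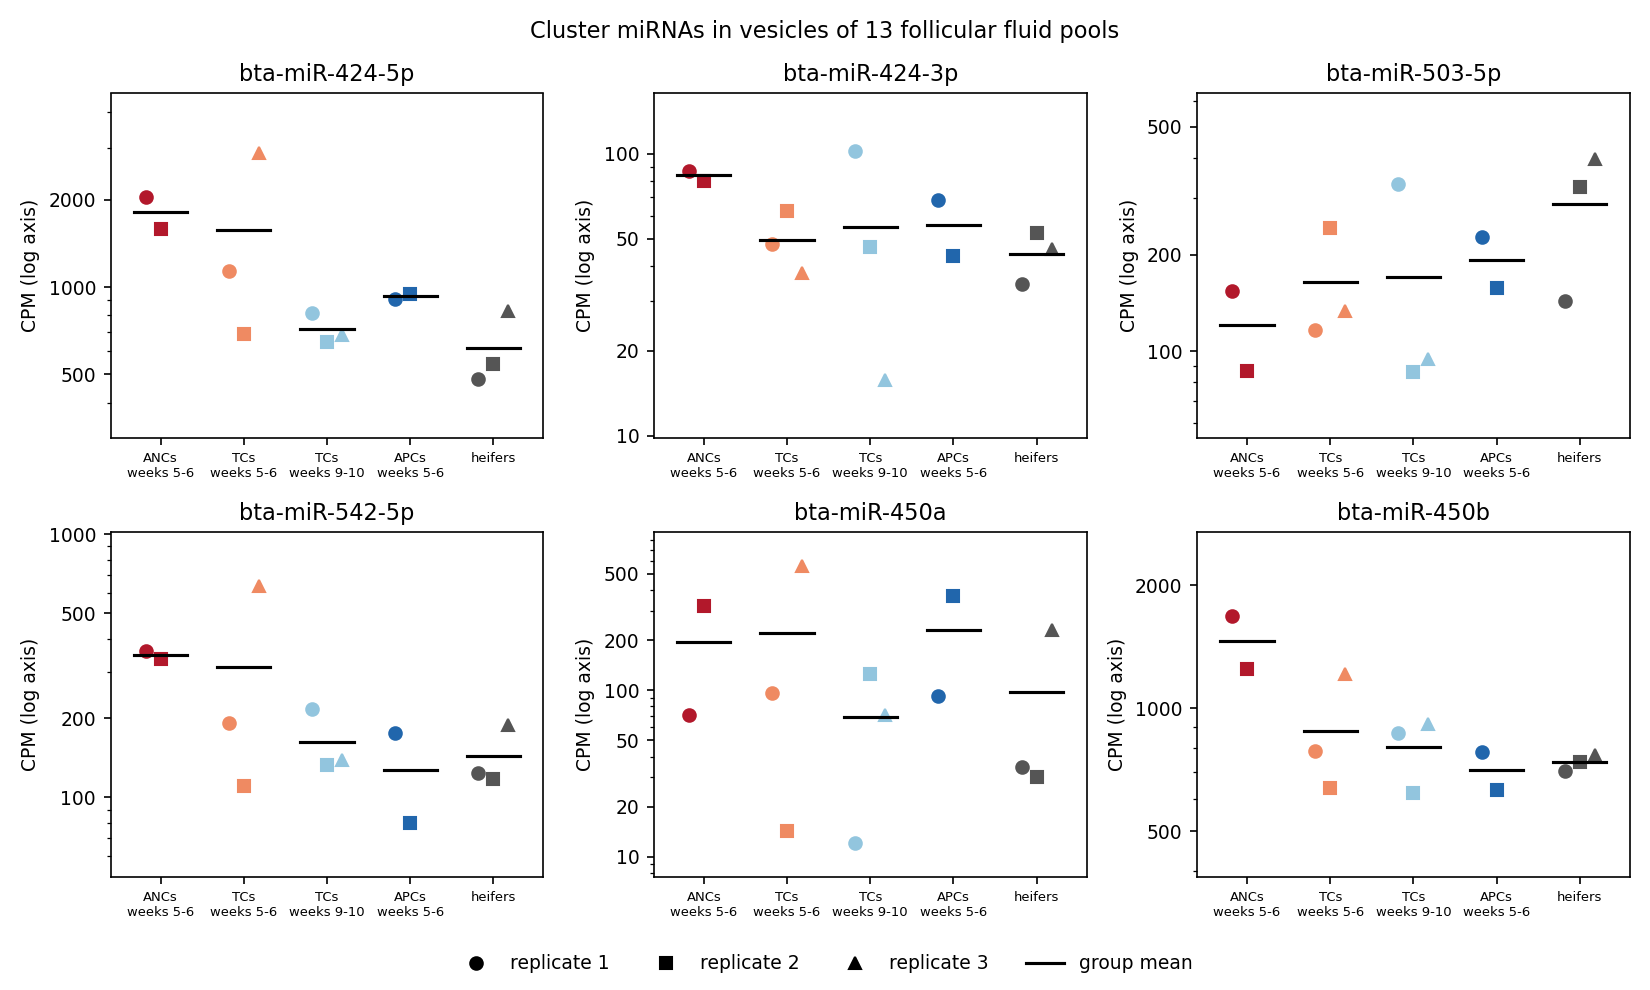
Levels of the 6 cluster miRNAs in each of 13 pools, in CPM on a log axis, by group, with a marker shape for each replicate number and a line at the group mean. The ANC pools and replicate 3 of TCs at weeks 5 and 6 (2898 CPM for bta-miR-424-5p) stand at the top for bta-miR-424-5p, bta-miR-542-5p and bta-miR-450b, whereas bta-miR-503-5p reaches its highest value, 396 CPM, in heifers.

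The comparison of ANCs with heifers is the one whose values chose the members, so its differences are a description without a test. On the log2(CPM + 5) scale bta-miR-424-5p was 1.57 higher in ANCs than in heifers (SE 0.40) and bta-miR-542-5p 1.28 higher (SE 0.41), which are 2.97-fold and 2.43-fold. bta-miR-450b was 0.97 higher (SE 0.37), bta-miR-424-3p 0.86 higher (SE 0.46) and bta-miR-450a 1.20 higher (SE 0.86). Without 1 pool the difference of bta-miR-450a ran from 0.15 (without replicate 2 of ANCs) to 2.25 (without replicate 1). bta-miR-503-5p differed in the other direction, by -1.15 (SE 0.52), with overlapping ranges, and by -1.59 to -0.76 without 1 pool (-0.76 without replicate 2 of ANCs). Its ranges did not overlap in the deposited values, where the nearest pools were at 144 in ANCs and 146 in heifers. Its opposite arm bta-miR-503-3p differed by 0.70 (SE 0.51). In 4 of 6 members, bta-miR-424-5p, bta-miR-424-3p, bta-miR-542-5p and bta-miR-450b, both ANC pools were above all heifer pools, which was so for 20.2% of the 218 miRNAs that passed the filter on low reads in these groups. All 6 members passed that filter in every comparison given here.

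ANCs are the same 2 pools in their comparisons with the other cows, which are likewise given without a test. Against APCs, the same 4 members were higher in ANCs without overlap, bta-miR-542-5p by 1.51 (SE 0.53) and bta-miR-424-5p by 0.95 (SE 0.42), beside 22.3% of 211 miRNAs. bta-miR-503-5p was lower in both ANC pools than in both APC pools, by -0.68 (SE 0.52), as were 21.8% of these miRNAs, and the difference ran from -1.07 to -0.28 without 1 or the other ANC pool. The nearest pools were at 155 CPM in ANCs and 157 CPM in APCs. In the deposited values these 2 pools were at 144 and 140, so that the ranges overlapped. Against TCs at weeks 9 and 10, bta-miR-424-5p (1.33, SE 0.34), bta-miR-542-5p (2.15-fold) and bta-miR-450b (0.87, SE 0.37) were higher without overlap, 3 of 6 members beside 14% of 221 miRNAs. Against TCs at weeks 5 and 6, which were in negative energy status like the ANCs, 2 of 6 members were higher without overlap, bta-miR-450b by 0.77 (SE 0.41) and bta-miR-424-3p by 0.73 (SE 0.47), beside 9.82% of 224 miRNAs. There, bta-miR-424-5p differed by 0.45 (SE 0.61) and bta-miR-542-5p by 0.53 (SE 0.71), and replicate 3 of the TCs was above both ANC pools for each. Without this pool the differences were 1.02 and 1.22. Over all fits that left out 1 pool they ran from -0.011 to 1.02 and from -0.011 to 1.22. Their sign thus depended on the pool left out.

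Tests were run between the 3 groups that took no part in the choice of the members, with limma on all miRNAs of the 2 groups. The call of a differentially expressed (DE) miRNA required a log2 difference of 1 or more in size, p under 0.05 and, after Benjamini-Hochberg adjustment over all miRNAs tested, p not above 0.25. The 3 comparisons share their groups pair by pair and are not independent of each other.

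The first of them compares TCs in positive with TCs in negative energy status. Whether the same cows were sampled at both times is not stated, so the times were compared as separate groups. 0 of 6 members were called between weeks 9 and 10 and weeks 5 and 6, where limma called 0 of 223 miRNAs (0%), with 15 at an unadjusted p-value under 0.05. The quasi-likelihood test of edgeR called 0 and DESeq2 9. bta-miR-424-5p was lower at the later time by 0.88 on the log2 scale (SE 0.51, 95% interval -2.05 to 0.29, limma adjusted p = 0.544). The later pools, at 649 to 815 CPM, overlapped the lowest of the early pools, at 688 CPM, and the other early pools lay above them. Without replicate 2 of the early TCs, the lowest of them, the difference was -1.34 with a limma adjusted p of 0.222 and bta-miR-424-5p was called, among 21 miRNAs, and without replicate 3 it was -0.31. bta-miR-542-5p differed by -0.58 (SE 0.63, 95% interval -2.04 to 0.88, limma adjusted p = 0.755) and by 0.12 without replicate 3 of the early TCs. bta-miR-450a differed by -0.89 (SE 1.23), and by 0.33 without that same pool, while bta-miR-450b, bta-miR-503-5p and bta-miR-424-3p differed by -0.10, -0.15 and -0.14, and each of these changed sign under other scalings of the libraries.

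For APCs against TCs at weeks 5 and 6, which compares cows of different energy status at the same weeks, 0 of 6 members were called, where limma called 0 of 225 miRNAs (0%), with 5 at an unadjusted p-value under 0.05. The quasi-likelihood test called 0 and DESeq2 1. bta-miR-542-5p differed by -0.98 (SE 0.80, 95% interval -2.89 to 0.93, limma adjusted p = 0.998) and bta-miR-424-5p by -0.50 (SE 0.62, 95% interval -1.98 to 0.99, limma adjusted p = 0.998). Without replicate 3 of the TCs these differences were -0.29 and 0.07. bta-miR-450a differed by 0.89 (SE 1.38), bta-miR-450b by -0.27 (SE 0.42), bta-miR-503-5p by 0.27 (SE 0.50) and bta-miR-424-3p by 0.16 (SE 0.48).

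For APCs against TCs at weeks 9 and 10, both in positive energy status, 0 of 6 members were called, while limma called 22 of 227 miRNAs (9.69%), 18 of them higher in APCs. Without replicate 3 of the TCs limma called 0, and without replicate 2 of the APCs 12. With libraries scaled by total reads, 43 miRNAs were called and 14 of them were higher in APCs. bta-miR-424-5p was 0.38 higher in APCs (SE 0.30, 95% interval -0.37 to 1.13, limma adjusted p = 0.675), and with total reads its difference was -0.09. It was the only 1 of 6 members that was higher in both APC pools than in all of these TC pools, beside 12.8% of the miRNAs tested. This separation depended on the scaling. In the deposited values bta-miR-424-5p was at 861 and 843 in APCs and at 921, 701 and 773 in these TCs, with overlap. The widest difference was that of bta-miR-450a, 1.78 (SE 1.03, 95% interval -0.75 to 4.32, limma adjusted p = 0.505), and in this case replicate 1 of the APCs, at 92.6 CPM, lay within the range of the TCs. Without replicate 2 of the APCs this difference was 0.82, and without replicate 1 it was 2.75. bta-miR-542-5p differed by -0.40 (SE 0.48), bta-miR-503-5p by 0.42 (SE 0.67), bta-miR-424-3p by 0.30 (SE 0.76) and bta-miR-450b by -0.17 (SE 0.34). The intervals of all members reached beyond a 2-fold difference in at least 1 direction in each of the 3 comparisons, other than that of bta-miR-450b between the TC times (-0.92 to 0.71), so that differences of this size were within what these pools allow.

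**Figure D2:**
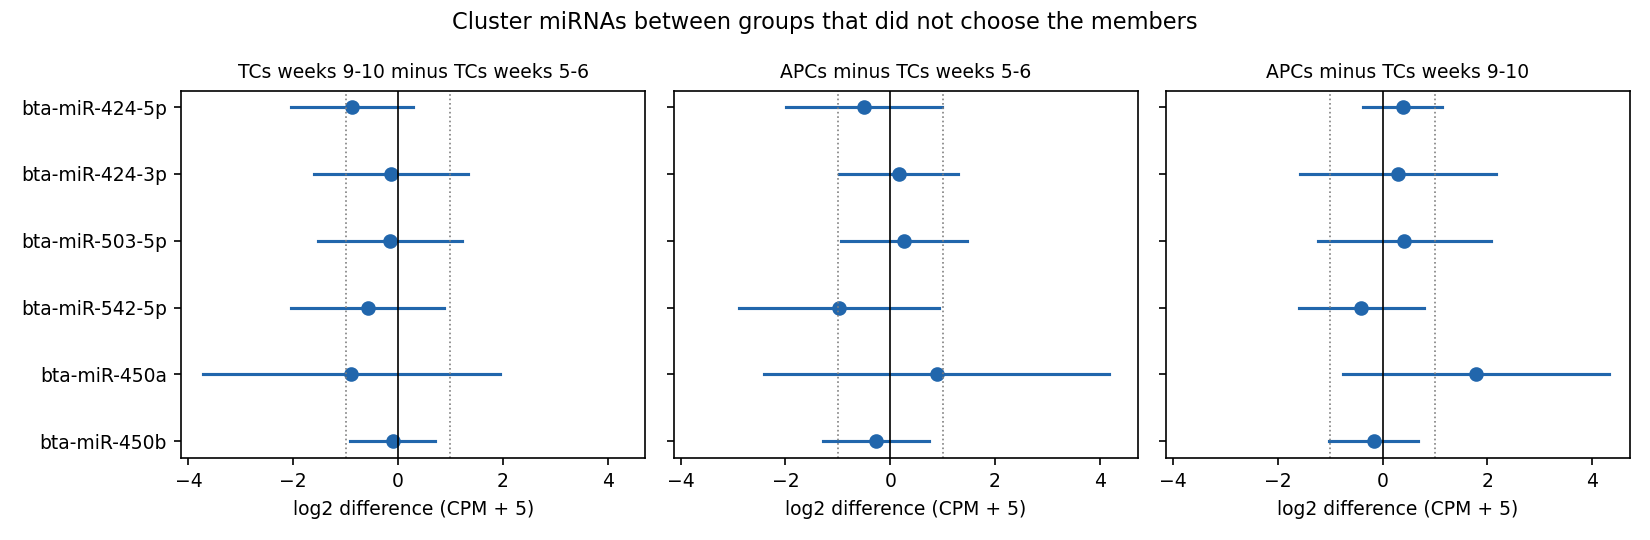
Differences of the 6 members on the log2(CPM + 5) scale in the 3 tested comparisons, with points at the estimate, lines for the 95% interval of limma, a solid line at 0 and dotted lines at -1 and 1. Each interval crosses 0, and those of bta-miR-450a are the widest, reaching from -0.75 to 4.32 for APCs minus TCs at weeks 9 and 10.

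Within the cluster the proportions of the members were not fixed. The ratio of bta-miR-424-5p to bta-miR-503-5p reads, which the scaling of a library cannot change, was 13.2 and 18.2 in ANCs and 3.38, 1.68 and 2.09 in heifers. bta-miR-424-5p was chosen for its values in these 2 groups, so this contrast follows in part from the choice. In APCs the ratio lay between those of ANCs and heifers, at 4.03 and 6.04. It spread over 9.74, 2.85 and 21.6 in TCs at weeks 5 and 6 and over 2.46, 7.54 and 7.25 in TCs at weeks 9 and 10. The ratio of the arms of miR-503, 5p over 3p, was 0.214 and 0.277 in ANCs and 0.527, 0.684 and 2.07 in heifers, where replicate 3 was the only pool of all 13 with more 5p than 3p reads. In the other groups it was 0.420 and 0.475 (APCs), 0.25, 0.403 and 0.195 (TCs at weeks 5 and 6) and 0.542, 0.324 and 0.330 (TCs at weeks 9 and 10). Reads of different miRNAs are not captured with equal efficiency, so that such ratios can be compared between pools but give no true proportion within a pool.

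**Figure D3:**
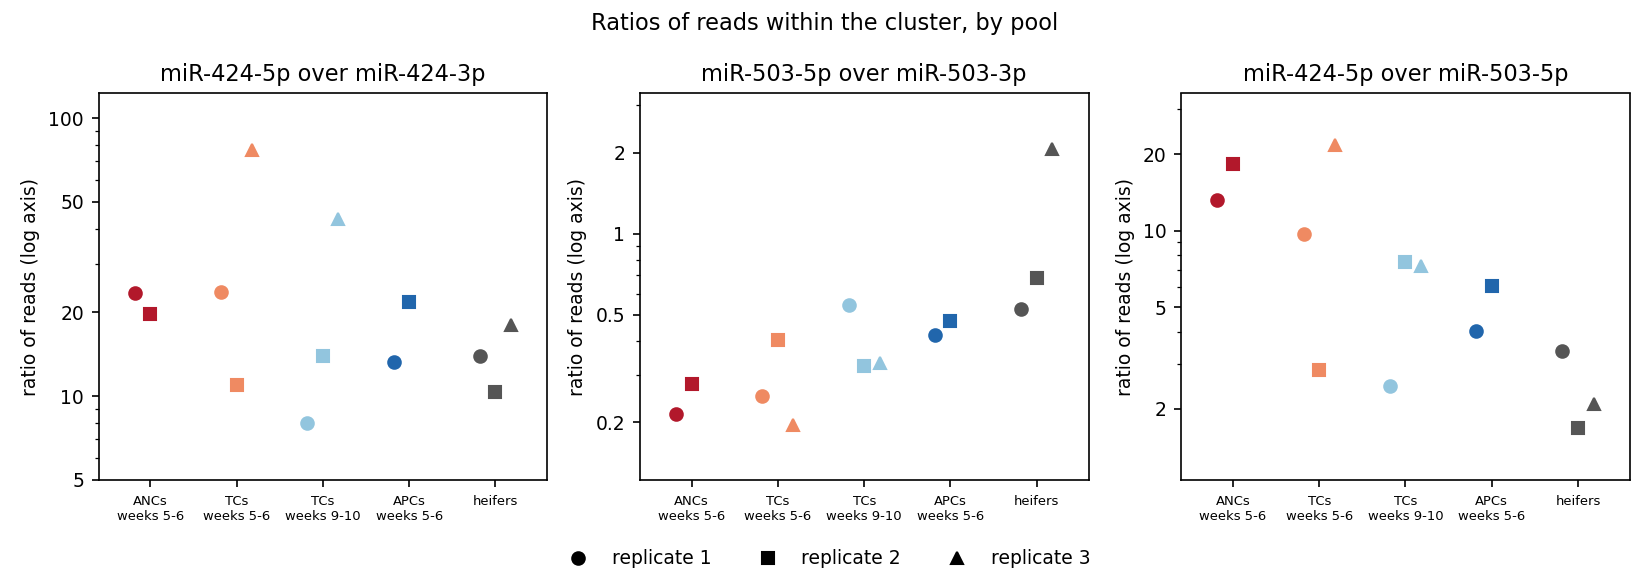
Ratios of reads between arms and between members in each of 13 pools, on log axes, by group and replicate number. The ratio of bta-miR-424-5p to bta-miR-503-5p is 13.2 or more in both ANC pools and at most 3.38 in heifers, which follows in part from the choice of bta-miR-424-5p. The ratio of the miR-503 arms exceeds 1 in a single heifer pool.

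The likeness of the members was measured by the Pearson correlation of their log2(CPM + 5) values over the 13 pools, against 243 other miRNAs that passed the filter over all libraries, as a description without a test. The pools share the scaling and the group differences that chose the members. bta-miR-542-5p was the miRNA most like bta-miR-424-5p (r = 0.867), followed by bta-miR-760-3p (r = 0.857) and bta-miR-450b (r = 0.797). Those most like bta-miR-542-5p were bta-miR-424-5p, bta-miR-450b (r = 0.849) and bta-miR-6529 (r = 0.839). bta-miR-450a came at rank 26 (r = 0.603), bta-miR-424-3p at rank 77 (r = 0.263) and bta-miR-503-5p at rank 152 (r = -0.272) in likeness to bta-miR-424-5p.

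Over the 8 pools of TCs and APCs alone, bta-miR-424-5p and bta-miR-542-5p had r = 0.839 and a Spearman rho of 0.476. Without the 2 pools farthest from the median of bta-miR-424-5p, replicate 3 of TCs at weeks 5 and 6 and replicate 2 of TCs at weeks 9 and 10, r was 0.214. The 6 pools kept for this value include replicate 2 of APCs, with 949 CPM of bta-miR-424-5p but 80.2 CPM of bta-miR-542-5p. The 2 sets differ only in the 2 pools left out, so r over the 8 pools depended on them. How far replicate 2 of APCs affected the r of 0.214 was not computed. bta-miR-542-5p and bta-miR-450b had r = 0.887 over the 8 pools (rho 0.786). Without the 2 pools farthest from the median of bta-miR-542-5p, replicate 3 of TCs at weeks 5 and 6 and replicate 2 of APCs, r was 0.624. The pools left out are not the same for the 2 pairs, so 0.214 and 0.624 cannot be set against each other.

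The miRNAs with the seed of miR-424-5p, namely miR-15a, miR-15b, miR-16a, miR-16b, miR-195 and miR-497, were far more abundant in sum than the cluster. Together they stood at 42501 and 51867 CPM in ANCs, 44520 to 50040 CPM in TCs at weeks 5 and 6, 57824 to 98405 CPM in TCs at weeks 9 and 10, 37707 and 60343 CPM in APCs and 69729 to 86873 CPM in heifers, whereas the 6 members together stood at 1522 to 5477 CPM. The most abundant of them, bta-miR-16b, went the opposite way to bta-miR-424-5p between ANCs and heifers, at 32493 ± 5200 CPM (n = 2) against 64249 ± 12548 CPM (n = 3), a log2 difference of -0.97 (SE 0.34) without overlap, and bta-miR-16a differed by -0.65 (SE 0.34), also without overlap. These were 2 of 6 relatives, and 28% of all miRNAs tested were lower in ANCs without overlap. In the tested comparisons none of these 6 relatives was called. bta-miR-16b was 0.85 higher in TCs at weeks 9 and 10 than at weeks 5 and 6 (SE 0.35, limma adjusted p = 0.544, unadjusted p = 0.0396).

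Markers of cell types differed between ANCs and heifers as well. The study had reported several miRNAs of the leukocyte, epithelial and erythroid lists as lower in ANCs than in heifers. The lists were chosen with earlier results of these data known, so their sums are a description without a test. bta-miR-202, a miRNA of gonadal somatic cells, was at 7016 and 8014 CPM in ANCs and at 2983 to 6364 CPM in the other 11 pools. The leukocyte list, with all 6 miRNAs listed, summed to 745 and 1580 CPM in ANCs and to 4868 to 6077 CPM in heifers, and the epithelial list, with 9 of 10 listed, to 5222 and 8550 CPM against 16555 to 26062 CPM. The erythroid list, with 2 of 3 listed, summed to 131 and 1145 CPM in ANCs and to 1717 to 3959 CPM in heifers. In the pools of TCs and APCs the leukocyte list summed to 1572.5 to 4820 CPM, the epithelial list to 5912 to 41961 CPM and the erythroid list to 751 to 10962 CPM. Each of these ranges overlapped that of the ANCs. For the leukocyte list the overlap came from replicate 3 of TCs at weeks 9 and 10 alone, at 1572.5 CPM against 1580 CPM. The next lowest of these pools was at 2082 CPM. No listed marker was at 0 in any library. The part of these differences in the levels of the cluster was not tested. Replicate 3 of TCs at weeks 5 and 6, where bta-miR-424-5p was highest, had 4426 CPM of bta-miR-202, 5583 CPM of the erythroid list and 3063 CPM of the leukocyte list, and these were not at the levels of the ANCs. Its epithelial sum, 6325 CPM, was within the range of the ANCs. In ANCs and heifers the RNA of replicate 1 was measured on another day than that of the other replicates. bta-miR-424-5p stood at 2040 CPM in ANCs and 484 CPM in heifers for the first day and at 1587 CPM against 544 and 827 CPM for the second, an order fixed by the choice of this miRNA, and the part of the day was not tested.

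**Figure D4:**
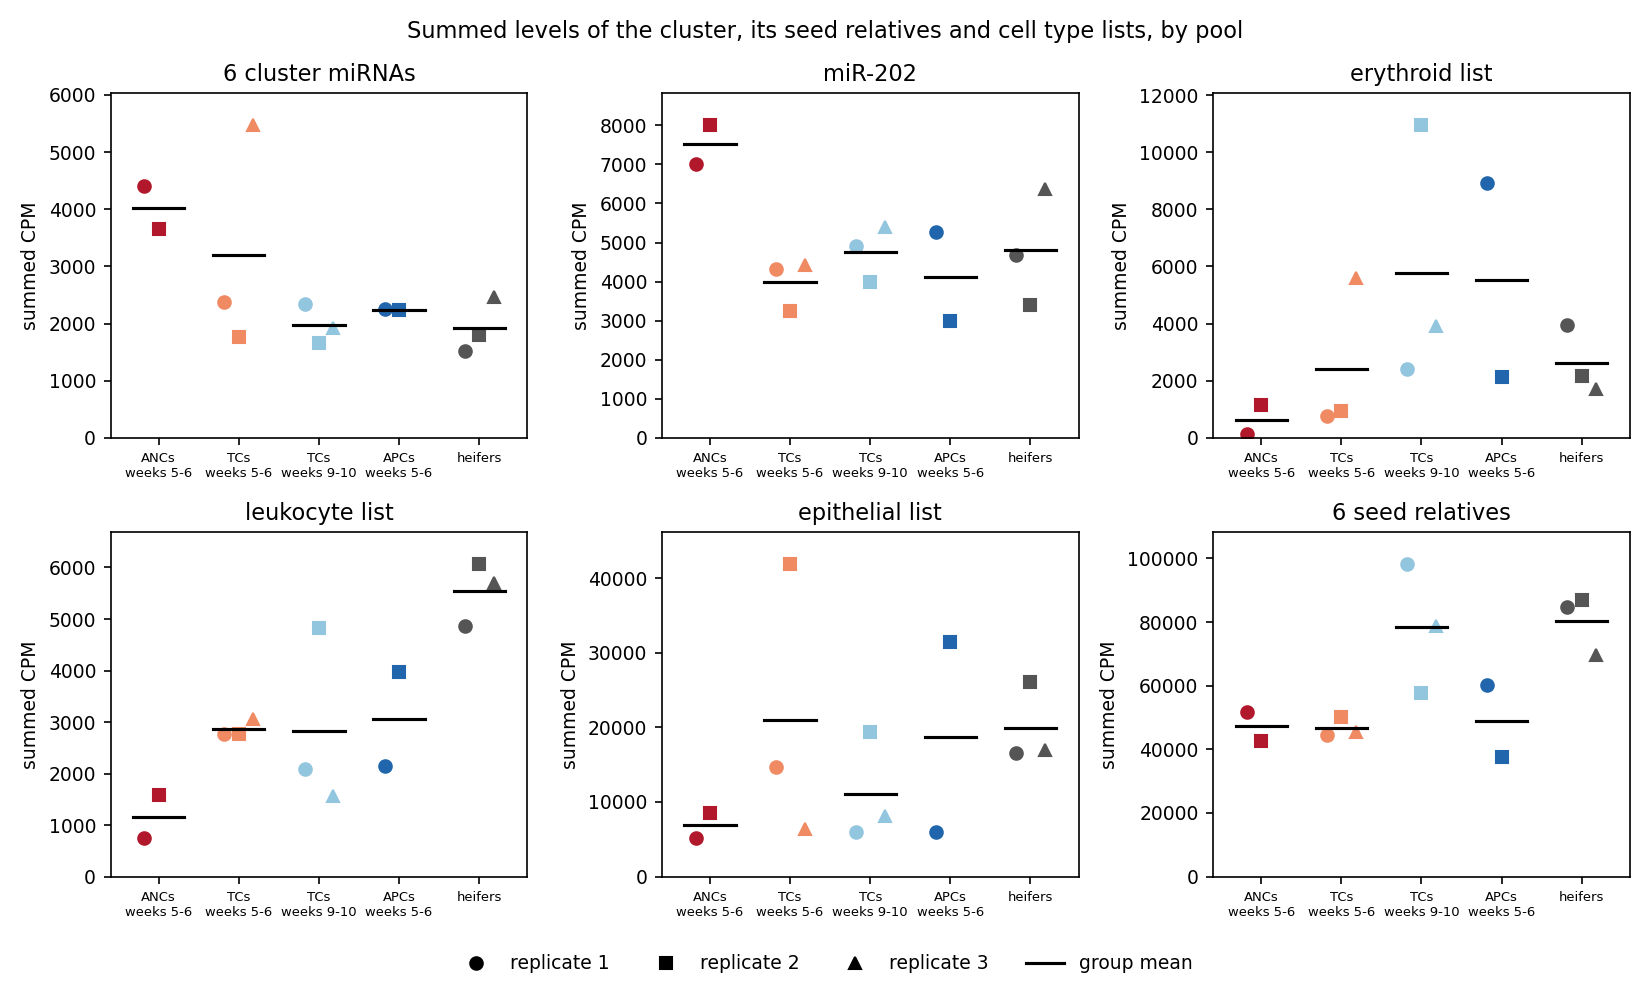
Summed CPM of the 6 cluster miRNAs, of miR-202, of the erythroid, leukocyte and epithelial lists and of the 6 seed relatives in each of 13 pools, by group, with a line at the group mean. The cluster sum is 4398 and 3656 CPM in ANCs and 5477 CPM in replicate 3 of TCs at weeks 5 and 6, and every other pool is at 2458 CPM or below.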

How the data were processed

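The authors trimmed the reads with Cutadapt 1.11, mapped them to the bovine genome (UMD3.1) with Bowtie2 2.2.2, annotated them with miRBase and normalized the counts with TMM. The deposited values are TMM-normalized CPM. For deposited columns whose totals exceeded what CPM can sum to, the unit was recorded as signal. All columns were made alike and were processed here in the same way. Reads per miRNA were recovered from the step that 1 read makes among low values (3681 of 3681 values within 0.1 of a read) and rescaled with TMM (edgeR 4.0.16) over the 262 miRNAs listed in every library. limma 3.58.1 with trend was fitted to log2(CPM + 5) of the 2 groups compared, after filterByExpr (minimum count 10, minimum total 15). DESeq2 1.42.0 and the quasi-likelihood test of edgeR were alternatives. Fold changes understate those of low miRNAs. Intervals of limma are at 95%. The named miRNAs are the 6 members, their listed opposite arms, 6 seed relatives and the 3 miRNAs most like each leading member. The members and lists were chosen with earlier results of these data known. Mature sequences were not used here.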

Additional observations from a re-analysis of the deposited data

How the results depend on the processing

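Of 300 recomputed differences of the members in the tested comparisons, 263 kept their direction and side of the threshold, 34 changed sign and 3 became called. Another scaling moved the median of all miRNAs in the tested comparisons by up to -0.46 on the log2 scale (APCs against TCs at weeks 9 and 10, total reads), and the differences of the members under that scaling include this shift. The causes of the changes below were not tested.

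For TCs at weeks 9 and 10 against weeks 5 and 6, DESeq2 called 9 miRNAs and leaving out 1 pool gave 0 to 21. With total reads bta-miR-424-3p, bta-miR-503-5p and bta-miR-450b differed by 0.081, 0.096 and 0.15, and with the deposited values by 0.0048, 0.0077 and 0.062. The quasi-likelihood test gave 0.15 and 0.058 for the first pair, and DESeq2 0.15 and 0.058. Leaving out 1 pool gave -0.71 to 0.48 for bta-miR-424-3p, -0.76 to 0.18 for bta-miR-503-5p, -1.116 to 0.12 for bta-miR-542-5p, -2.10 to 0.33 for bta-miR-450a, -0.31 to 0.15 for bta-miR-450b and -1.34 to -0.31 for bta-miR-424-5p.

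For APCs against TCs at weeks 5 and 6, DESeq2 called 1 miRNA and leaving out 1 pool gave 0 to 1. With total reads bta-miR-424-3p differed by -0.042. Leaving out 1 pool gave -0.96 to 0.074 for bta-miR-424-5p, -0.14 to 0.46 for bta-miR-424-3p and -0.32 to 2.11 for bta-miR-450a. For APCs against TCs at weeks 9 and 10, 43 miRNAs were called with total reads (14 higher) and 36 with the deposited values (15 higher), and 0 to 21 without 1 pool. With total reads bta-miR-424-5p, bta-miR-424-3p and bta-miR-503-5p differed by -0.093, -0.12 and -0.044. Leaving out 1 pool gave -0.32 to 0.87 for bta-miR-424-3p and -0.94 to 0.14 for bta-miR-542-5p.

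The replicate numbers are shared by name alone. Pools with the same number had correlations of their deviations of -0.011, -0.034 and 0.10 between the TC times, of -0.087 and 0.084 between APCs and early TCs and of 0.50 and 0.50 between APCs and late TCs. With the replicate block, where replicate 3 has no partner in APCs and drops out, limma called 18 miRNAs for APCs against early TCs. There bta-miR-450a differed by 2.11 (adjusted p = 0.118) and was called, bta-miR-424-5p by 0.074 and bta-miR-424-3p by -0.0032. Against late TCs the block called 27 miRNAs, with bta-miR-450a at 2.01 (adjusted p = 0.071, called) and bta-miR-424-3p at -0.32. Between the TC times the block called 0. A fit of the TC times with the day of RNA measurement also called 0, and there bta-miR-424-5p differed by -0.88 (limma adjusted p = 0.6225). The described differences of ANCs were recomputed 258 times, and 9 changed sign. In the comparison with heifers bta-miR-424-5p stayed between 1.39 and 1.80 and bta-miR-542-5p between 1.12 and 1.49. bta-miR-450a ran from 0.15 to 2.25 there and bta-miR-503-5p from -1.59 to -0.76.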
